A study of Mus musculus with 23 samples.

Results

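A set of 9 genes that encode transcription regulators of spermatocytes and spermatids was followed through the first spermatogenic wave of the mouse testis, in vivo and in organ culture. Mybl1, Tcfl5, Brdt, Crem, Fhl5, Rfx2, Sox30, Tbpl1 and Taf7l were chosen by name, and all 9 of them were found among the 27466 genes of the count table and passed the filter on low counts that left 19255 genes for testing. All samples were testes of wild type CD-1 mice. In vivo testes were taken at 6.5 dpp (days postpartum), either fresh or after a controlled slow freezing protocol (CSF), and at 10.5, at 22.5 and at 36.5 dpp, fresh. Explants of 6.5 dpp testes were grown in α-MEM with KnockOut serum replacement, gentamicin and retinol, and collected after 4 (D4), 16 (D16) or 30 days (D30; fresh, or CSF before culture), which correspond in age to the later in vivo groups in the same order. Explants were pooled for each replicate after the necrotic centre had been cut away, so a culture library holds the living rim, while an in vivo library holds whole tissue.

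In the first wave the germ cells of a testis advance together, from spermatogonia through the long prophase of meiosis to round and then elongating spermatids. A-MYB, the product of Mybl1, turns on a large set of genes of pachytene spermatocytes together with precursors of piRNAs and the proteins that process them. TCFL5 is a helix-loop-helix factor of spermatocytes, BRDT is the testis member of the BET family, whose bromodomains bind acetylated histones, and RFX2 drives genes of cilia and of the sperm flagellum through a site named the X-box. SOX30 is an HMG-box factor of late meiosis and round spermatids. CREM, a factor that responds to cAMP signalling, activates postmeiotic genes with FHL5 (also named ACT) as its coactivator, while TBPL1 (TRF2) and TAF7L are germ cell relatives of the TATA-binding protein and of the TFIID subunit TAF7.

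Positions are those of the RefSeq genes on GRCm38.p6. Mybl1 (gene 17864) lies at chr1:9667407-9700439, Tcfl5 (277353) at chr2:180621956-180642691, Brdt (114642) at chr5:107331116-107387061, Crem (12916) at chr18:3266354-3337773 and Fhl5 (57756) at chr4:25199907-25242852. Rfx2 (19725) lies at chr17:56775897-56831008, Sox30 (214105) at chr11:45979069-46017992, Tbpl1 (237336) at chr10:22703877-22732666 and the X-linked Taf7l (74469) at chrX:134460116-134476505. Exon bases shared with a gene on the opposite strand numbered 234 for Tcfl5 (with Col9a3), 472 for Crem (with Gm6225) and 407 for Tbpl1 (with Slc2a12). The library kit keeps the strand, but the strand setting of the counting is not given in the sources used here, so reads from these stretches cannot be told apart. Counts per gene also do not separate the activator and repressor isoforms of Crem, and reads of Taf7l could be shared with its close relative Taf7l2.

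The 21 libraries used here comprised 12 in vivo libraries (4 of 6.5 dpp, of which 3 were CSF, 3 of 10.5 dpp, 3 of 22.5 dpp and 2 of 36.5 dpp) and 9 culture libraries (3 of D4, 2 of D16 and 4 of D30, of which 1 was CSF). Each held 28351546 to 69029328 counts. At that depth the lowest value of a member, 4 counts of Fhl5 in a D16 library, is still above the floor of 3 counts taken here as the limit of detection. A further pair of columns was left out. The column of 6.5 dpp fresh replicate 3 was identical to that of replicate 2 at every gene, and both were counted as 1 sample. The library labelled 6.5 dpp fresh replicate 1 stood apart from its group, with a Spearman correlation across genes of 0.928 with 6.5 dpp fresh replicate 2 and of 0.985 with D16 replicate 1. It held 256.9 CPM (counts scaled to a common library total) of Brdt and 212.4 CPM of Rfx2, where the other 6.5 dpp libraries held 20.07 to 34.0 and 4.55 to 8.038 CPM. Counts of members are therefore given without it and, where it changes them, also with it in its labelled group. The labels give 3 CSF samples at 6.5 dpp, where the design text gives 2. Replicate 3 of these held 33.01 CPM of Crem and 118.0 CPM of Tbpl1, where the other 6.5 dpp libraries used held 10.67 to 16.96 and 54.61 to 67.71 CPM, and leaving it out gave the highest number of genes called in 8 of 11 comparisons among the fits without 1 library. Markers of the labelled tissue were present in every library. The summed level of the 2 pan-germ-cell genes Ddx4 and Dazl was 586 to 1608 CPM, and that of 4 Sertoli cell genes was 657.9 to 8951 CPM. The submitters call the samples of a group biological replicates without naming animals or litters, so p-values measure the spread between these samples.

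Promoters of 7 of the 9 genes (8 promoters, 2 of them of Fhl5) were found in the RefSeq promoter table of GRCm38.p6. Shown are 5 promoters, with 4 of genes that rose in vivo and that of Taf7l, which fell. Of these genes, Fhl5 made its larger rise from 22.5 to 36.5 dpp, later than Tcfl5, Brdt and Rfx2. The promoters are printed from 250 bases before the transcript start up to the start or the edge of the gene. They are Tcfl5 (chr2:180642692-180642941, minus strand), Brdt (chr5:107330944-107331115, plus strand), Rfx2 (chr17:56831009-56831258, minus strand), Fhl5 (chr4:25242853-25243102, minus strand) and Taf7l (chrX:134476506-134476740, minus strand). Capitals mark the MYB core AACNG, the core TGACG of the cAMP response element and the X-box core GTTGCC, each read on both strands.
Tcfl5: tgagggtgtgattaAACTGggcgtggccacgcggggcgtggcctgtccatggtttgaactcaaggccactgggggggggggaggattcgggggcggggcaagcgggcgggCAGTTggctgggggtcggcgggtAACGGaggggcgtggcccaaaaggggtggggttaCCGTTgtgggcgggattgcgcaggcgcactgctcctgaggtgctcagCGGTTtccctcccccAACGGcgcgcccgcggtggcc
Brdt: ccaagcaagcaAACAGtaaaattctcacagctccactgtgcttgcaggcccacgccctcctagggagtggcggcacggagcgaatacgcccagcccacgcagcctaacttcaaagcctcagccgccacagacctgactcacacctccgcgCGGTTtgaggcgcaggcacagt
Rfx2: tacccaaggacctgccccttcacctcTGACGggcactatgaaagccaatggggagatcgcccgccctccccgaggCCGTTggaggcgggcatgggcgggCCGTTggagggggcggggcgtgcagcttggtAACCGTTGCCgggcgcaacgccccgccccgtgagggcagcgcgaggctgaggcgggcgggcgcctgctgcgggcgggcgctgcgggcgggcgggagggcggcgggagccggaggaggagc
Fhl5: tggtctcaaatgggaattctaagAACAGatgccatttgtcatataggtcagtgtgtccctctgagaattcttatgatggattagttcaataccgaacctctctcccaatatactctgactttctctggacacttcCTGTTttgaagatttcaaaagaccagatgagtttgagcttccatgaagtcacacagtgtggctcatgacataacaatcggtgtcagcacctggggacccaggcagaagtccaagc
Taf7l: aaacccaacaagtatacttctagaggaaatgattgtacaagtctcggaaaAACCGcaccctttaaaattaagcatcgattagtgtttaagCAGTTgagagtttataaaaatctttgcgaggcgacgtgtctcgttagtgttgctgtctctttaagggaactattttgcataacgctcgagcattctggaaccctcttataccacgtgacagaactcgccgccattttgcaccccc
The short MYB core was found in all 8 promoters of the members, but also in 74.2% of the 32851 promoters of the table. Tcfl5 held 6 copies and the other promoters 2 to 4. The X-box core was found in 1 member promoter, that of Rfx2 itself, at positions -116 to -111 (counted from the transcript start), where it overlaps a MYB core at -118 to -114, and in 10.4% of all promoters. TGACG was likewise found in the Rfx2 promoter alone among the members (17.8% of all promoters), and the full palindromic element in none of them (1.55% of all). The SOX core AACAAT was found in 1 Fhl5 promoter (9.42% of all), a TATAAA box in that of Taf7l (12.4%) and CACGCG in those of Tcfl5 and Sox30 (7.62%). These matches are a description of the letters alone.

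**Figure D1:**
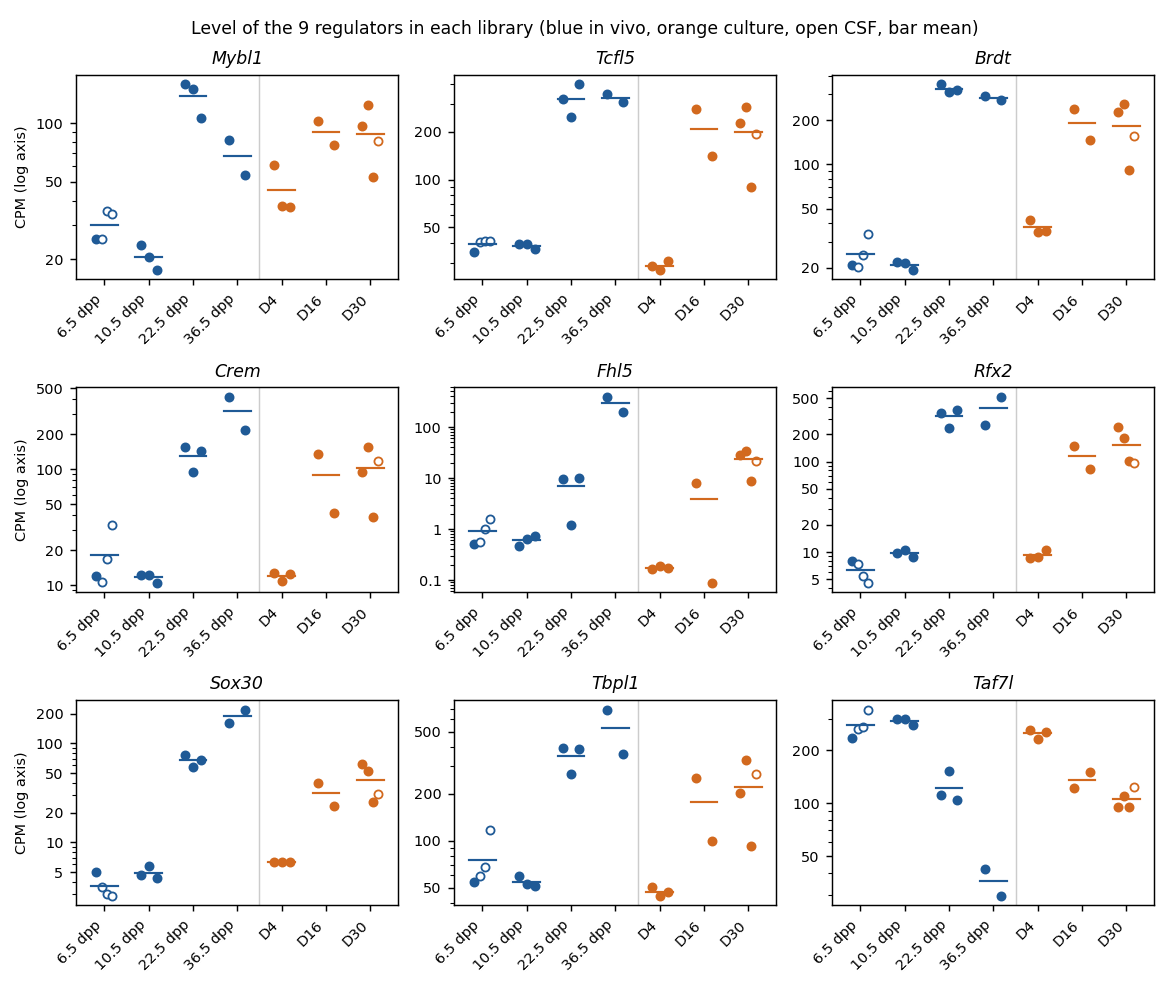
Level of each of the 9 genes in each of the 21 libraries, in CPM on a log axis, by age in vivo (blue) and day of culture (orange). Open points are CSF libraries and bars are means; Mybl1 is highest at 22.5 dpp with a mean of 138.4 CPM, Fhl5 at 36.5 dpp with 294.2 CPM, and Taf7l at 10.5 dpp with 294.1 CPM.

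Between 10.5 and 22.5 dpp 8 of the 9 genes rose, by 7.91-fold (Tbpl1) to 40.7-fold (Rfx2), and Taf7l fell. All 9 passed the test (edgeR's quasi-likelihood test with Benjamini-Hochberg adjustment over all genes, adjusted p under 0.05), where 61.5% of all genes tested did, 33.6% upwards and 27.9% downwards. In bulk tissue, a change in the number of cells of a type and a change in the RNA per cell cannot be told apart. The summed level of 5 spermatocyte markers (Sycp3, Sycp1, Spo11, Piwil1 and Ldhc) moved from 158 to 201 CPM at 10.5 dpp to 3823 to 5714 CPM at 22.5 dpp, and its part in these changes was not tested.

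Mybl1, at 23.71, 20.61 and 17.64 CPM in the 10.5 dpp libraries, stood at 159.1, 149.6 and 106.4 CPM at 22.5 dpp (log2 fold change 3.04 ± 0.33 SE, adjusted p = 4.67e-07). Tcfl5 went from 39.56, 39.18 and 36.45 CPM to 321.6, 246.5 and 401.1 CPM (3.38 ± 0.36). Brdt went from 21.71, 21.58 and 19.2 CPM to 351.8, 309.7 and 319.6 CPM (4.27 ± 0.37). For each of these genes every 22.5 dpp library lay above every 10.5 dpp library.

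Rfx2 made the steepest rise, from 9.856, 10.51 and 8.82 CPM to 348.6, 237.6 and 370.4 CPM (5.35 ± 0.44, adjusted p = 1.58e-08). Sox30 went from 4.692, 5.757 and 4.401 CPM to 75.92, 58.2 and 67.81 CPM (4.07 ± 0.35). Crem went from 12.33, 12.32 and 10.44 CPM to 154.7, 95.18 and 143.1 CPM (3.80 ± 0.57). Fhl5, its coactivator, was still scarce at 22.5 dpp, with 9.77, 1.206 and 10.24 CPM after 0.4715, 0.6396 and 0.7456 CPM (3.84 ± 1.00, adjusted p = 0.00289). Replicate 2 at 22.5 dpp was the lowest of its group for Tcfl5, Brdt, Crem, Fhl5, Rfx2, Sox30 and Tbpl1, and also for the spermatocyte markers (3823 CPM against 5453 and 5714 CPM).

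Among the relatives of the basal machinery, Tbpl1 rose from 59.4, 53.17 and 51.29 CPM to 390.6, 266.0 and 388.1 CPM (2.98 ± 0.46). Taf7l moved the other way, from 302.6, 302.3 and 277.3 CPM at 10.5 dpp to 111.0, 151.9 and 104.3 CPM at 22.5 dpp (-0.98 ± 0.19, adjusted p = 0.000238). Its ranges did not overlap either, and for it replicate 2 was the highest library at 22.5 dpp. The 5 spermatogonial markers also fell as a sum. They held 1101 to 1145 CPM at 10.5 dpp, 233.3 to 420.7 CPM at 22.5 dpp and 107.9 to 111.1 CPM at 36.5 dpp. All 5 were called lower at 22.5 than at 10.5 dpp, but from 22.5 to 36.5 dpp 3 were called lower and 1 higher. The sum of the 4 Sertoli cell markers fell as well (4402 to 4699, 1550 to 2690 and 657.9 to 873.3 CPM). The part of these markers in the values of Taf7l was not tested. Ranges of CPM were apart for 9 of 9 members, as they were for 78.5% of all genes tested. These 9 calls were also made by DESeq2, with the library labelled 6.5 dpp fresh replicate 1 put back, and without any 1 library.

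From 22.5 dpp, the round spermatid stage, to 36.5 dpp, the elongated spermatid stage, 4 of 9 members were called. This is near the share of all genes called, 50.7%, with 23.3% upwards and 27.5% downwards. Fhl5, Sox30 and Crem rose, Taf7l fell further, and for the other 5 genes no change passed the test. Fhl5 showed the largest rise of the set, 57.1-fold, from at most 10.24 CPM to 394.5 and 193.9 CPM in the 36.5 dpp libraries (log2 5.84 ± 1.06, adjusted p = 0.000271). Sox30 reached 160.3 and 219.5 CPM (2.00 ± 0.35, adjusted p = 0.00018), and Crem 421.5 and 216.6 CPM (1.77 ± 0.56, adjusted p = 0.0144). Both Crem values lie above the highest 22.5 dpp library, but they differ from each other by more than the 3 libraries at 22.5 dpp do.

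Taf7l was down to 42.41 and 29.63 CPM at 36.5 dpp (-1.25 ± 0.22, adjusted p = 0.000204). Mybl1 held 81.97 and 54.16 CPM, below every 22.5 dpp library in CPM, yet its change of -0.52 ± 0.34 on the scale of the fit did not pass (adjusted p = 0.216). Tcfl5 (347.9 and 306.1 CPM, 0.51 ± 0.36), Brdt (290.9 and 274.9 CPM, 0.29 ± 0.36), Rfx2 (256.8 and 522.9 CPM, 0.79 ± 0.40) and Tbpl1 (692.7 and 358.2 CPM, 1.08 ± 0.48, adjusted p = 0.0662) did not pass either. The ranges of 6 members were apart, against 73.8% of all genes.

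The scale matters for this step. At 36.5 dpp a few spermatid transcripts take a large share of the counts (the 4 elongating spermatid markers Prm1, Prm2, Tnp1 and Tnp2 summed to 16210 and 21200 CPM, after 2.764 to 32.09 CPM at 22.5 dpp), and CPM values there read lower than values scaled with TMM factors. On library size alone the median log2 fold change of all genes moved from -0.13 to -0.64, Brdt turned to -0.21 and Mybl1 passed the test at -1.02 (adjusted p = 0.0114). Crem lost its call without 22.5 dpp replicate 2 (adjusted p = 0.0618) or 36.5 dpp replicate 1 (0.163), while Tbpl1 passed with RLE factors (1.27, adjusted p = 0.0393), with DESeq2 (0.0305), with only the groups compared (0.0405), and without 6.5 dpp CSF replicate 3 (0.0403), 36.5 dpp replicate 2 (0.0416), D16 replicate 1 (0.0485) or 2 (0.0485) or D30 replicate 3 (0.0328), and Rfx2 passed with DESeq2 (0.0494) and without 36.5 dpp replicate 1 (0.0465). With the library labelled 6.5 dpp fresh replicate 1 in its group, 2 members were called.

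The earliest interval, 6.5 to 10.5 dpp, brought no call among the 9 genes (0 with edgeR and 0 with DESeq2, and 1 at an unadjusted p under 0.05), where 1.14% of all genes were called. Mybl1 had the lowest p, with 25.6 CPM in the fresh and 25.35, 35.4 and 34.07 CPM in the CSF libraries at 6.5 dpp against 17.64 to 23.71 CPM at 10.5 dpp (-0.62 ± 0.29, adjusted p = 0.348). The ranges of Mybl1 and Rfx2 were apart, 2 of 9 members against 18.9% of all genes. At both ages Taf7l had the highest level of the set per kilobase of exon (123.8 and 131.0 CPM per kb), followed by Tbpl1 (22.91 and 16.7 CPM per kb).

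**Figure D2:**
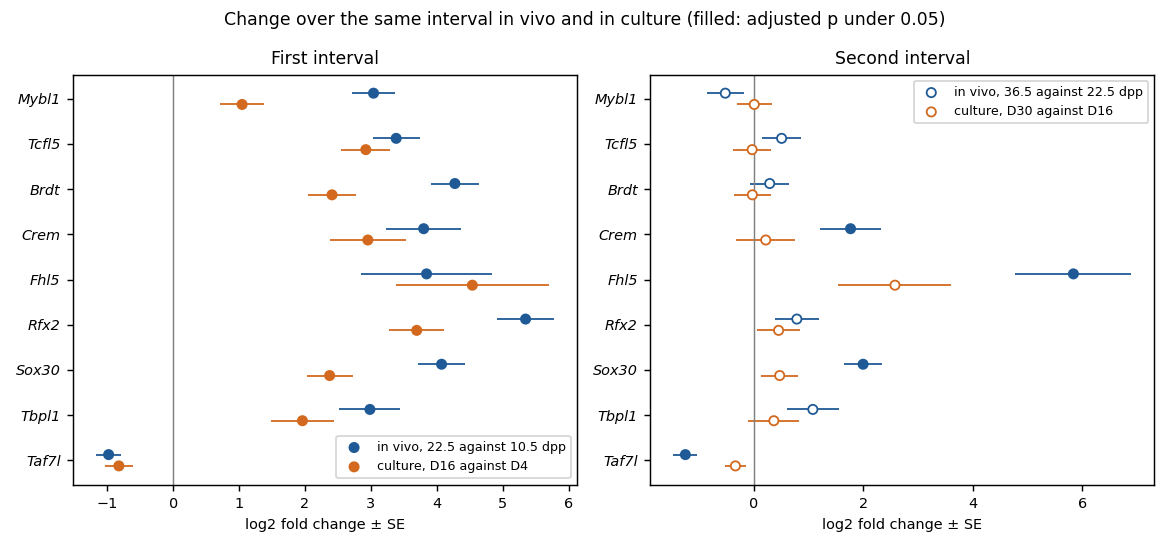
Change of each gene over 2 intervals, as log2 fold change ± SE, in vivo (blue) and in culture (orange), with filled points where the adjusted p was under 0.05. Over the first interval all 9 genes moved the same way in both settings, with Rfx2 at 5.35 in vivo and 3.70 in culture; over the second, the culture points sit near 0 except that of Fhl5 at 2.58, which did not pass.

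In culture, the same 8 genes rose between D4 and D16 and Taf7l fell, with point estimates nearer to 0 than in vivo for every gene but Fhl5 (the test of these differences follows further on). All 9 members were called, where 23.9% of all genes were, 18.4% upwards and 5.48% downwards, and 8 of 9 had ranges apart, against 56.7% of all genes. Rfx2 again rose most clearly, from 8.521, 8.824 and 10.65 CPM at D4 to 149.4 and 82.87 CPM at D16 (3.70 ± 0.42, adjusted p = 2.51e-06). Tcfl5 went from 28.56, 26.93 and 30.62 CPM to 276.7 and 141.3 CPM (2.92 ± 0.37), and Brdt from 42.14, 34.65 and 35.42 CPM to 237.1 and 145.7 CPM (2.41 ± 0.36). In each of these the D16 libraries lay far above the D4 libraries but also far from each other.

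Crem went from 12.63, 10.89 and 12.57 CPM to 136.4 and 42.15 CPM (2.95 ± 0.58), Sox30 from 6.315, 6.282 and 6.389 CPM to 39.57 and 23.54 CPM (2.37 ± 0.35), and Tbpl1 from 50.24, 44.31 and 46.98 CPM to 252.3 and 99.93 CPM (1.96 ± 0.48, adjusted p = 0.00517). Mybl1 rose least, from 61.02, 37.5 and 37.27 CPM to 103.0 and 77.45 CPM (1.04 ± 0.33, adjusted p = 0.0288). Taf7l fell from 262.2, 232.6 and 254.9 CPM to 122.6 and 150.2 CPM (-0.83 ± 0.22, adjusted p = 0.00808). Fhl5 was the gene whose ranges overlapped, since it stood at 7.843 CPM in D16 replicate 1 but at 0.0874 CPM (4 counts) in replicate 2, below the 0.1625 to 0.1918 CPM of the D4 libraries. The spermatogonial markers summed to 770.7 to 861.3 CPM at D4 and to 422.7 and 581.5 CPM at D16.

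The size of the step in culture depended on D16 replicate 1. Without it, 4 of the 9 members were called, Crem (1.84, adjusted p = 0.0677), Tbpl1 (1.11, 0.278), Mybl1 (0.80, 0.339) and Taf7l (-0.71, 0.158) no longer passed, and Fhl5 turned to -0.95 (0.913). Mybl1 also lost its call without D4 replicate 2 or 3 (adjusted p = 0.108 for each). The spermatocyte markers summed to 3953 CPM in D16 replicate 1 and 1594 CPM in replicate 2, and the 4 round spermatid markers (Acrv1, Acr, Spaca1 and Tssk6) to 140.4 and 33.43 CPM. With the library labelled 6.5 dpp fresh replicate 1 in its group, 3 members were called.

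Between D16 and D30 none of the 9 genes passed the test (0 with edgeR and 0 with DESeq2, and 1 at an unadjusted p under 0.05), where 1.79% of all genes did. Fhl5 held 28.59, 33.7 and 8.665 CPM in the fresh and 21.73 CPM in the CSF library at D30, all above both D16 libraries (2.58 ± 1.03, adjusted p = 0.29), and was the 1 member with ranges apart, against 16.5% of all genes. For the other 8 members the log2 fold changes lay between -0.33 (Taf7l) and 0.47 (Sox30). Replicate 3 at D30 was the lowest fresh library for 8 of the 9 genes, for example with 90.13 CPM of Tcfl5 against 228.0, 286.3 and, in the CSF library, 194.5 CPM. Its spermatocyte markers summed to 1143 CPM, against 3165 to 4111 CPM in the other D30 libraries. Without D16 replicate 1, Fhl5 was called in this comparison (8.07, adjusted p = 0.00682), against the 4 counts of the D16 library that was left.

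Age-matched comparisons set each day of culture against the testis of the same age; they share their libraries with the comparisons above and are not independent of them. At D4, Mybl1 was higher than at 10.5 dpp, 2.34-fold (1.22 ± 0.31, adjusted p = 0.0174), with each D4 library above each 10.5 dpp library. It was the 1 member called, where 8.10% of all genes were, 4.92% upwards and 3.18% downwards. Brdt stood at 34.65 to 42.14 CPM at D4 against 19.2 to 21.71 CPM (0.93 ± 0.33, adjusted p = 0.0938), and Fhl5 at 0.1625 to 0.1918 CPM against 0.4715 to 0.7456 CPM (-1.72 ± 1.16, adjusted p = 0.498), both apart in range but not called. In all, 7 of 9 ranges were apart, against 48.5% of all genes. The spermatocyte markers summed to 251.9 to 303.6 CPM at D4, above the 158 to 201 CPM at 10.5 dpp. A fit of these 6 libraries alone called 6465 genes, where the fit of all libraries called 1559. In the smaller fit 5 members passed: Mybl1, Brdt (0.94, adjusted p = 0.000109) and Sox30 (0.46, 0.0213) upwards, and Tcfl5 (-0.32, 0.0159) and Fhl5 (-1.72, 0.00121) downwards. In the fit of all libraries the Mybl1 call was lost without 10.5 dpp replicate 2 (adjusted p = 0.0617) or 3 (0.0997), without D4 replicate 1 (0.115), and with the library labelled 6.5 dpp fresh replicate 1 (0.269), whereas without D30 replicate 3 Brdt was called as well (0.0299).

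**Figure D3:**
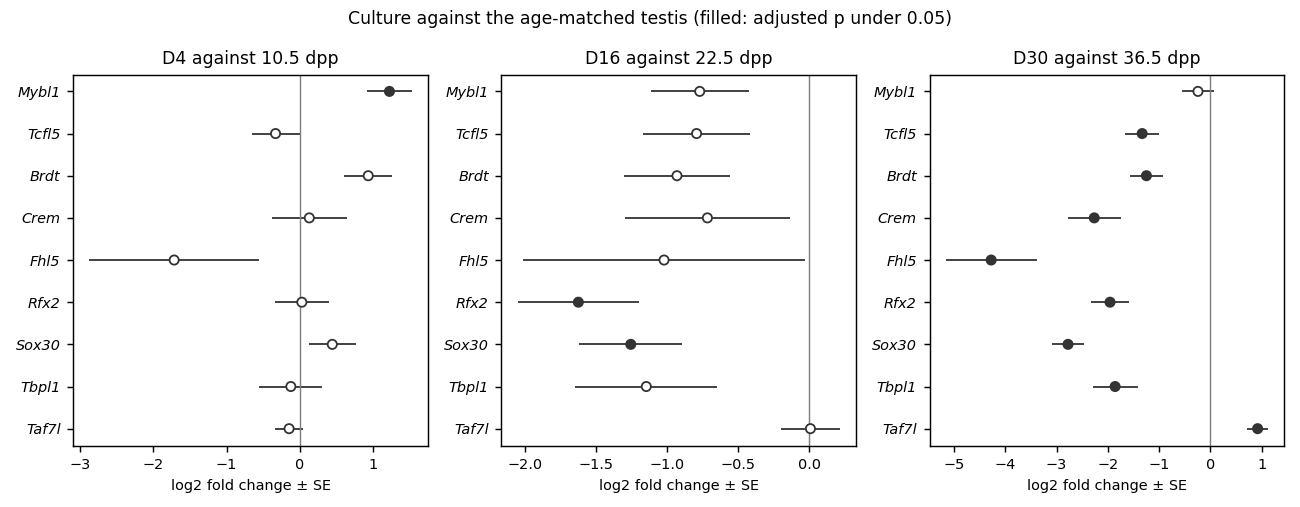
Culture against the testis of matched age, as log2 fold change ± SE for each of the 9 genes, with filled points where the adjusted p was under 0.05. At D4 Mybl1 is filled, at 1.22; at D16 Rfx2 and Sox30, at -1.63 and -1.26; at D30 every gene but Mybl1, with Fhl5 lowest at -4.28 and Taf7l highest at 0.92.

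At D16, Rfx2 and Sox30 were lower than at 22.5 dpp, and no other member was called, 2 of 9 where 25.8% of all genes were, 11.8% lower and 14.0% higher. Rfx2 was 3.08-fold lower (-1.63 ± 0.43, adjusted p = 0.0125) and Sox30 2.39-fold lower (-1.26 ± 0.36, adjusted p = 0.0194). For both genes the higher D16 library lay below the lowest 22.5 dpp library. Of the other members, 6 had negative values, from -0.72 ± 0.58 (Crem) to -1.15 ± 0.50 (Tbpl1), and Taf7l was at 0.01 ± 0.21. The ranges of 5 members were apart, against 50.7% of all genes. Over the same groups the Sertoli cell markers summed to 4866 to 6797 CPM at D16 and 1550 to 2690 CPM at 22.5 dpp (4 of 4 called higher), the spermatogonial markers to 422.7 to 581.5 and 233.3 to 420.7 CPM (2 of 5 called higher) and the spermatocyte markers to 1594 to 3953 and 3823 to 5714 CPM (1 of 5 called lower), and their part in the values of the members was not tested. DESeq2 called 4 members, adding Brdt (-1.02, adjusted p = 0.0304) and Tbpl1 (-1.24, 0.0488). The count went from 6 without D16 replicate 1 to 0 without D16 replicate 2 (Rfx2 -1.24, adjusted p = 0.188; Sox30 -0.91, 0.246). Sox30 also lost its call without 22.5 dpp replicate 1 (0.0701) or 3 (0.0525), 4 members were called without D30 replicate 3, and 3 without 6.5 dpp CSF replicate 3. With the library labelled 6.5 dpp fresh replicate 1 in its group, or in a fit of the 5 libraries compared, 0 members were called.

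By D30 the distance from the testis of matched age had become wide. Of the 9 genes, 7 were lower than at 36.5 dpp and Taf7l was higher, 8 calls where 67.4% of all genes were called, 35.0% lower and 32.4% higher. Fhl5 was 19.4-fold lower (-4.28 ± 0.89, adjusted p = 0.00042), at 8.665 to 33.7 CPM against 193.9 and 394.5 CPM. Sox30 was 6.86-fold lower (-2.78 ± 0.32, adjusted p = 1.49e-06), at 25.72 to 61.84 CPM against 160.3 and 219.5 CPM. Crem was 4.81-fold lower (-2.27 ± 0.52, adjusted p = 0.000941), at 38.82 to 156.4 CPM against 216.6 and 421.5 CPM. For each of these genes of the spermatid programme the highest D30 library, fresh or CSF, was below the lower 36.5 dpp library.

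Rfx2 was 3.89-fold lower (-1.96 ± 0.37), Tbpl1 3.63-fold lower (-1.86 ± 0.44), Tcfl5 2.52-fold lower (-1.33 ± 0.34) and Brdt 2.37-fold lower (-1.25 ± 0.33, adjusted p = 0.00289). Taf7l stood at 95.71 to 122.9 CPM at D30 and at 29.63 and 42.41 CPM at 36.5 dpp, 1.89-fold higher on the scale of the fit (0.92 ± 0.21, adjusted p = 0.000841). Mybl1 was the member that did not pass (-0.24 ± 0.32, adjusted p = 0.512), and its sign turned on library size alone (0.38) and without 36.5 dpp replicate 1 (0.05). The ranges of 8 members were apart, against 72.8% of all genes. Each of the 8 calls was also made without any 1 library; on library size alone Brdt was at -0.63 (adjusted p = 0.0692), and with the library labelled 6.5 dpp fresh replicate 1 in its group 5 members were called. In the same comparison the round spermatid markers summed to 80.48 to 214.4 CPM at D30 and 876.1 to 947.9 CPM at 36.5 dpp. All 4 were called lower. The 4 elongating spermatid markers, all called lower too, summed to 331 to 1601 and 16210 to 21200 CPM. The spermatocyte markers summed to 1143 to 4111 and 4834 to 7204 CPM, but 2 of 5 were called lower. Their median log2 fold change was -0.34, where that of all genes was -0.03. The spermatogonial markers summed to 399.9 to 581.6 and 107.9 to 111.1 CPM (3 of 5 called higher at D30). The Sertoli cell markers summed to 5252 to 8951 and 657.9 to 873.3 CPM (4 of 4). The part of these shifts in the values of the members was not tested.

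Whether the steps themselves differed between culture and testis was tested as a difference of contrasts. From D4 to D16, Mybl1 rose 3.99-fold less than from 10.5 to 22.5 dpp (-1.995 ± 0.465, adjusted p = 0.014), Brdt 3.64-fold less (-1.86 ± 0.49, adjusted p = 0.0258) and Sox30 3.25-fold less (-1.70 ± 0.48, adjusted p = 0.0341), 3 of 9 members where 9.61% of all genes were called, 4.36% lower and 5.26% higher. The age-matched values behind it were 1.22 at D4 and -0.77 at D16 for Mybl1, and 0.93 and -0.93 for Brdt. Rfx2 had a difference of similar size that did not pass (-1.65 ± 0.56, adjusted p = 0.0675), though it passed with DESeq2 (-1.73, 0.0244) and with only the groups compared (-1.68, 0.0131), each of which called 4 members. Fhl5 had the widest error (0.70 ± 1.49). The number called ran from 0 to 4 when 1 library was left out. It was 0 without D16 replicate 2 and with the library labelled 6.5 dpp fresh replicate 1, and 1 without 10.5 dpp replicate 1 or 3, 22.5 dpp replicate 1 or 3 or D4 replicate 1. Sox30 also lost its call without D4 replicate 2 (0.0612) or 3 (0.0622), and Rfx2 gained one without 22.5 dpp replicate 2 (0.0344), D16 replicate 1 (0.0386) or D30 replicate 1 (0.0467).

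From D16 to D30, Sox30 gained 2.87-fold less than from 22.5 to 36.5 dpp (-1.52 ± 0.47, adjusted p = 0.0311) and Taf7l lost less (0.91 ± 0.29, adjusted p = 0.0367), 2 of 9 members where 20.1% of all genes were called, 8.63% lower and 11.5% higher. The values of Fhl5 (-3.26 ± 1.29, adjusted p = 0.0795) and Crem (-1.55 ± 0.77, adjusted p = 0.156) were large and uncertain. Both passed without D16 replicate 2 (Fhl5 -4.25, adjusted p = 0.00632; Crem -2.17, 0.0471), whereas without D16 replicate 1 Fhl5 turned to 2.25 (0.445). No member was called without 22.5 dpp replicate 2, 36.5 dpp replicate 2, D16 replicate 1 or the D30 CSF library, nor with the library labelled 6.5 dpp fresh replicate 1, and 1 was without D30 replicate 2. Both calls were also lost with the replicate number as a block (Sox30 -1.37, adjusted p = 0.063; Taf7l 0.91, 0.0572) and with only the groups compared (0.0918 and 0.119). Sox30 alone lost its call on library size (-1.06, 0.0712), and Taf7l alone with RLE factors (0.75, 0.0911), DESeq2 (0.75, 0.065) and 9 groups (0.86, 0.0555). Under stricter thresholds (an absolute log2 fold change of 2 or more with an adjusted p up to 0.001) 7 of the 9 genes passed for 22.5 against 10.5 dpp (18.4% of all genes), 1 for 36.5 against 22.5 dpp (9.90%), 5 for D16 against D4 (7.86%) and 3 for D30 against 36.5 dpp (21.3%). None passed for D4 against 10.5 dpp (1.07%), D16 against 22.5 dpp (1.42%) or the differences of steps (0.431% and 1.67%).

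Freezing before culture or sampling was compared with fresh tissue over 6.5 dpp and D30 together, with the stage as a covariate. No member was called (0 with edgeR and 0 with DESeq2, and 1, Sox30, at an unadjusted p under 0.05), and of all genes 0% were, with 1261 genes at an unadjusted p under 0.05 and 4 called by DESeq2. Sox30 was at -0.64 ± 0.29 (adjusted p = 0.648), with 5.031 CPM in the fresh and 3.577, 3.017 and 2.892 CPM in the CSF libraries at 6.5 dpp, and 30.77 CPM in the CSF library at D30 against 25.72 to 61.84 CPM. The design holds 1 fresh library at 6.5 dpp and 1 CSF library at D30, so a SE of 0.18 (Taf7l) to 1.01 (Fhl5) on the log2 scale is what it allows.

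Ordered by their means over the 7 stages, Tcfl5, Brdt, Crem, Rfx2, Sox30 and Tbpl1 placed the same 3 groups (6.5 dpp, 10.5 dpp and D4) lowest and both 22.5 and 36.5 dpp highest, with D16 and D30 between them. D16 and D30 stood next to each other in that order for these 6 genes, and their ranges overlapped for each. The next stage above them overlapped in range too for Tcfl5, Crem, Rfx2, Sox30 and Tbpl1, and lay apart for Brdt. In CPM, Mybl1 was highest at 22.5 dpp, above D16 (90.21 ± 18.05 CPM, SD, n = 2) and D30 (88.5 ± 29.67, n = 4), with 36.5 dpp (68.07 ± 19.67, n = 2) lower still. Scaled with TMM factors, its 36.5 dpp mean (104.0 CPM) was instead above D30 (87.97) and D16 (87.35), and that of Brdt at 36.5 dpp (433.3) above 22.5 dpp (353.9). Taf7l ran in reverse, lowest at 36.5 dpp (36.02 ± 9.04 CPM, n = 2), with 22.5 dpp, D16 and D30 overlapping in the middle. Fhl5 at 36.5 dpp (294.2 ± 141.8 CPM, n = 2) was separated from every other stage, of which D30 was the next (23.17 ± 10.84, n = 4).

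Compared per kilobase of merged exons, the leading member changed with age. Taf7l led at 10.5 dpp (131.0 CPM per kb) and D4 (111.3), Tbpl1 and Tcfl5 at 22.5 dpp (106.5 and 102.0), and Fhl5 at 36.5 dpp (251.2). At D30 the first places were still held by Tbpl1 (68.01), Tcfl5 (63.09) and Taf7l (47.2), with Fhl5 at 19.79 CPM per kb. With the longest transcript in place of merged exons Tcfl5 came before Tbpl1 at 22.5 dpp and at D30, and the other first places were kept.

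**Figure D4:**
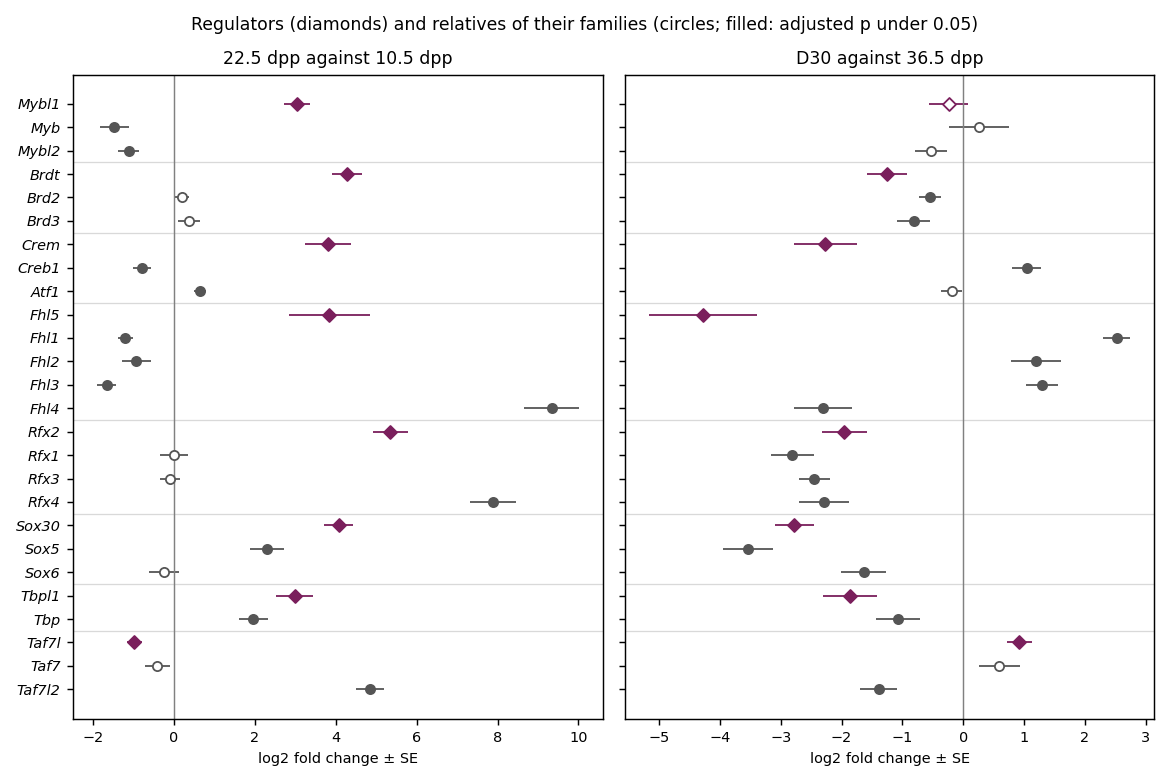
Log2 fold change ± SE of 8 of the members (diamonds) and of 18 relatives from their families (circles), filled where the adjusted p was under 0.05, for 22.5 against 10.5 dpp (left) and D30 against 36.5 dpp (right). Fhl4 (9.34) and Rfx4 (7.89) stand beyond the members on the left, while Fhl1 (2.52) lies on the other side of 0 from Fhl5 (-4.28) on the right.

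Relatives of the members were followed as a list of 19 genes, of which 18 passed the filter. From 10.5 to 22.5 dpp 6 rose and 6 fell, near the shares of all genes (33.6% and 27.9%). The median log2 fold change of the list was -0.05, where that of all genes was 0.06 and that of the members was 3.80. The genes that rose were Fhl4, a testis relative of Fhl5, from 3.055 to 4.144 CPM to 1113 to 2191 CPM (9.34), Rfx4 (7.89), Taf7l2 (4.85), Sox5 (2.30), Tbp itself (1.96) and Atf1 (0.64). Taf7l2, which is close in sequence to Taf7l, thus moved opposite to it, from 9.293 to 12.85 CPM to 225.5 to 287.5 CPM. Those that fell were Creb1 (-0.79), Fhl2 (-0.93), Mybl2 (-1.12), Fhl1 (-1.20), Fhl3 (-1.66) and Myb (-1.48), the last at 1.235 CPM at most.

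From 22.5 to 36.5 dpp Rfx1 (2.51), Rfx3 (2.26), Sox5 (3.69), Sox6 (2.41) and Fhl4 (1.60) rose, 5 of the 18, and 3 fell. Of all genes 23.3% rose and 27.5% fell. In culture 4 relatives rose from D4 to D16 (Fhl4 7.29, Rfx4 6.40, Taf7l2 3.06 and Tbp 1.24) and 0 fell, where 18.4% and 5.48% of all genes did. From D16 to D30 0 were called (0 with DESeq2, and 2 at an unadjusted p under 0.05), where 1.79% of all genes were. At D4, 1 relative (Myb, -1.42) was lower than at 10.5 dpp, as were 3.18% of all genes. At D16 Rfx4 (-1.59) and Taf7l2 (-1.23) were lower and Fhl1 (0.86) higher than at 22.5 dpp, where 11.8% and 14.0% of all genes were. At D30, 10 of the 18 were lower than at 36.5 dpp (35.0% of all genes were), among them Sox5 (-3.54), Rfx1 (-2.81), Rfx3 (-2.45) and Fhl4 (-2.31), and 4 were higher (32.4% of all genes), among them Fhl1 (2.52) and Fhl3 (1.29). For Rfx1, Rfx3, Sox5 and Sox6 the step from D16 to D30 also differed from that in vivo (-2.23, -2.14, -2.81 and -2.25, each with an adjusted p under 0.05). In this difference of steps 4 of the 18 were called lower and 1 higher, where 8.63% and 11.5% of all genes were.

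The list of basal machinery held 14 TAF and TFIIA or TFIIB genes. From 10.5 to 22.5 dpp 7 rose and 2 fell (median 0.64), where 33.6% and 27.9% of all genes did. The rises were led by Gtf2a1l, the germ cell form of a TFIIA subunit (10.69, from 0.1273 to 0.139 CPM to 106.9 to 225.4 CPM), and Taf9 (3.33). Taf4b, a TFIID subunit of germ cells, was at -0.31 and not called, and from 22.5 to 36.5 dpp it fell (-1.41), as did Taf1 (-1.61) and Taf4 (-1.52). From D4 to D16 2 of the 14 rose, Gtf2a1l (8.47) and Taf9 (3.10), and Taf4b fell (-0.54), with a median of 0.30. Of all genes 18.4% rose and 5.48% fell. At D16 0 were called against 22.5 dpp (3 with DESeq2, and 3 at an unadjusted p under 0.05), where 25.8% of all genes were. At D30, 5 of the 14 were lower than at 36.5 dpp, with Taf9 at -2.39 and Gtf2a1l at -2.18, and 4 were higher, with Taf1 at 1.81 and Taf4b at 0.91. These 9 calls of 14 are near the 67.4% of all genes called in this comparison.

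Genes known to lie downstream of the members were counted in lists of their own. Of 8 piRNA factors linked to A-MYB, 8 rose from 10.5 to 22.5 dpp (median 2.85), with Tdrd6 at 10.29 and Piwil1 at 7.56, and 7 rose from D4 to D16 (median 2.25). Of all genes 33.6% and 18.4% rose over these intervals. At D16, 6 of the 8 factors were lower than at 22.5 dpp (median -1.06), and at D30 5 were lower than at 36.5 dpp (median -0.85). Of all genes 11.8% and 35.0% were lower there. Mybl1 itself was at -0.77 ± 0.35 and -0.24 ± 0.32 in these 2 comparisons and was not called in either.

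Of 8 genes of axoneme and linker histone linked to RFX factors, 8 rose from 10.5 to 22.5 dpp (median 7.70) and 8 from D4 to D16 (median 5.38). Of all genes 33.6% and 18.4% rose over these intervals. At D16, 6 of the 8 were lower than at 22.5 dpp (median -1.39), where 11.8% of all genes were. Among the 6 were Rsph1, a radial spoke gene (-1.67), and Dnali1, a dynein arm gene (-1.60). Rfx2 was at -1.63 in the same comparison. The step from D4 to D16 was smaller than that in vivo for 4 of them, Rsph1 (-2.84), Dnaic1 (-2.14), Dnali1 (-2.10) and Spag16 (-1.81), where 4.36% of all genes were called lower. At D30, 7 of the 8 were lower than at 36.5 dpp (median -1.71), where 35.0% of all genes were.

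Of 11 genes known as CREM targets, 9 rose and 1 fell from 10.5 to 22.5 dpp (median 3.77), where 33.6% and 27.9% of all genes did. From D4 to D16 9 rose (median 3.85), where 18.4% of all genes did. At D16 0 were called against 22.5 dpp (median -1.085), where 25.8% of all genes were. DESeq2 called 1 there, and 1 had an unadjusted p under 0.05. From 22.5 to 36.5 dpp 10 rose (median 6.04), with the protamine genes Prm1 and Prm2 at 11.01 and 11.05, where 23.3% of all genes rose. From D16 to D30 4 rose, Prm1 (7.47), Prm2 (7.72), Tnp1 (6.06) and Tnp2 (7.24), where 1.79% of all genes were called. DESeq2 called 7 of the 11. In this comparison Crem was at 0.22 ± 0.54 and Fhl5 at 2.58 ± 1.03, and neither was called. The D16 libraries behind the Fhl5 value held 312 and 4 counts, and every D30 library lay above both. All 11 were lower at D30 than at 36.5 dpp (median -4.44), for instance Odf1, an outer dense fibre gene (-4.54), and Ldhc (-1.89). Of all genes 35.0% were lower in that comparison. Prm1 stood at 67.2 to 328.1 CPM at D30 and at 3144 and 5161 CPM at 36.5 dpp. Piwil1 and Ldhc are also on the list of spermatocyte markers, and the protamine and transition protein genes make up that of elongating spermatids. Whether the members act on these genes was not tested.

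Of 8 other regulators of late germ cells, 5 rose and 1 (Mycl) fell from 10.5 to 22.5 dpp (median 1.51), where 33.6% and 27.9% of all genes did. Spz1 (7.74), Hsf5 (6.56) and Zmynd15 (6.07) were ahead of the members. At D16, 5 were lower than at 22.5 dpp (median -1.16; 11.8% of all genes), among them Zmynd15 (-1.68) and Hsf5 (-1.20). At D30 6 were lower and 2 higher than at 36.5 dpp (median -1.40), with Spz1 at -4.12 and Mycl at 1.51. Of all genes 35.0% were lower and 32.4% higher there. Hsf5 and Zmynd15 also rose less from D4 to D16 than in vivo (-1.95 and -2.59). In this difference of steps 3 of the 8 were called lower and 1 higher, where 4.36% and 5.26% of all genes were.

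Profiles most like those of the members were sought by Pearson correlation of log2(CPM + 1) over the 21 libraries among 15774 genes, as a description, since all points share the change in cell composition with age. The nearest gene was Carf for Mybl1 (r = 0.971), Ybx3, a germ cell RNA-binding protein gene, for Tcfl5 (0.995), Iqcg for Brdt (0.994) and 4930550C14Rik for Crem (0.994). It was 1700003F12Rik for Fhl5 (0.996), Lrrc29 for Rfx2 (0.998), Mycbpap for Sox30 (0.994) and Znhit1 for Tbpl1 (0.994). For Taf7l it was Tex11, another X-linked meiotic gene (0.992), with a mean of 162.5 CPM at 10.5 dpp, 14.99 CPM at 36.5 dpp and 51.42 CPM at D30. Among the members themselves Crem and Tbpl1 were closest (0.987), followed by Rfx2 and Sox30 (0.979), while Mybl1 and Fhl5 were the least alike of the 8 that rose (0.507), and Taf7l was negative against each of the others (-0.61 to -0.94).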

How the data were processed

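RNA was sequenced as single-end 50-base reads from poly(A) libraries of a stranded kit. Per the submitters' processing notes and the study's methods, the authors aligned reads to GRCm38 with STAR 2.7.3a and counted them per gene with HTSeq 0.12.4 (intersection-nonempty); the strand setting is not given in the sources used here. The deposited values are these raw counts under NCBI gene identifiers, of which 27373 matched the RefSeq table. No column was left unmapped.

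Groups came from the sample labels. CPM were computed on library totals. All 21 libraries were fitted together in 7 groups (CSF with fresh) with edgeR 4.0.16 in R 4.3.3: TMM factors, filterByExpr, quasi-likelihood F test and Benjamini-Hochberg adjustment over all 19255 genes tested. Fold changes come from this fit, on the TMM scale. The SE beside each is its absolute log2 fold change divided by the square root of the F statistic. It is thus derived from the test and adds no information to the p-value. Alternatives were RLE factors, library size alone, no filter or at least 1 CPM in 2 libraries, a log2 fold change of at least 2 with an adjusted p of at most 0.001, DESeq2 1.42.0, fresh libraries or compared groups alone, 9 groups, the replicate number as a block, the library labelled 6.5 dpp fresh replicate 1 put back, and each library left out. On simulated data with 200 of 19255 genes changed 4-fold, edgeR called 84.5% of them for D16 against 22.5 dpp and 79% for D30 against 36.5 dpp, with 18 and 14 unchanged genes called. All other genes were set equal between the stages compared, and as many genes were raised as lowered. In the data 25.8% and 67.4% of all genes were called, so these rates need not hold there.

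All 9 members are reported in every comparison, the 6 lists by their counts in the comparisons named, mostly with the median, and for each member the nearest of its 3 most correlated genes. A gene of the list of relatives is not reported here, and the counts of that list leave it out. The members, the lists and the tests were chosen with earlier results of these data known. Plots were drawn with matplotlib 3.10.9. Counting error alone is covered by the floor of 3 counts.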

Additional observations from a re-analysis of the deposited data

Results flagged for a closer look

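At 6.5 dpp the fresh library was set apart from the CSF libraries for Tcfl5, with 35.22 CPM against 40.72 to 41.06 CPM. It was the 1 such value found in 18 groups of 4 libraries tested with Dixon's criterion, which chance meets in about 1 of 20 groups.

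The step from D4 to D16 differed from that between 10.5 and 22.5 dpp, as a difference of log2 fold changes with an adjusted p under 0.05, for Mybl1 (-1.995), Brdt (-1.86) and Sox30 (-1.70). These were 3 of 9 members, where 9.61% of all genes were called. None of the 3 passed with the library labelled 6.5 dpp fresh replicate 1 put back. The step from D16 to D30 differed from that between 22.5 and 36.5 dpp for Sox30 (-1.52) and Taf7l (0.91). These 2 of 9 members are near the share of all genes called, 20.1%. Neither passed with the replicate number as a block or with only the groups compared.

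In the library labelled 6.5 dpp fresh replicate 1, which was left out of the comparisons, 8 members lay above the range of the other 6.5 dpp libraries. They were Mybl1 (106.7 CPM), Tcfl5 (220.1 CPM), Brdt (256.9 CPM), Crem (88.57 CPM), Fhl5 (3.378 CPM), Rfx2 (212.4 CPM), Sox30 (51.0 CPM) and Tbpl1 (181.0 CPM). Taf7l, at 113.4 CPM, lay below that range (233.9 to 341.7 CPM).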

How the results depend on the processing

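Counts of members called out of 9 were 9 for 22.5 against 10.5 dpp under every alternative but the strict thresholds (7), and 0 for 10.5 against 6.5 dpp under all. For 36.5 against 22.5 dpp (4 in the fit reported) they were 5 with RLE factors, library size alone or only the groups compared and 6 with DESeq2, and for the earlier difference of steps (3) 4 with DESeq2 or only the groups compared. With the strict thresholds (an absolute log2 fold change of 2 or more with an adjusted p up to 0.001) the other counts were 1 for 36.5 against 22.5 dpp (4 in the fit reported), 5 for D16 against D4 (9), 3 for D30 against 36.5 dpp (8) and 0 for D4 against 10.5 dpp (1), D16 against 22.5 dpp (2) and both differences of steps (3 and 2). With the library labelled 6.5 dpp fresh replicate 1 they were 2, 3, 5 and, for the last 4, 0. With only the groups compared they were 5 for D4 against 10.5 dpp, 0 for D16 against 22.5 dpp and 0 for the later difference of steps, which was 1 with RLE factors, library size alone, DESeq2 or 9 groups; DESeq2 called 4 for D16 against 22.5 dpp. Leaving out 1 library gave ranges of 3 to 5 (36.5 against 22.5 dpp), 4 to 9 (D16 against D4), 0 to 1 (D30 against D16), 0 to 2 (D4 against 10.5 dpp), 0 to 6 (D16 against 22.5 dpp), 8 to 8 (D30 against 36.5 dpp) and 0 to 4 (each difference of steps). The causes were not tested.

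Whether replicate numbers pair the samples cannot be told from the deviations of same-numbered libraries. For D16 and 22.5 dpp these deviated together with r = 0.52 and 0.66, for D30 and 36.5 dpp with -0.23 and -0.47. In a group of 2 libraries, as at D16 and at 36.5 dpp, the deviations from the mean mirror each other. With the replicate number as a block the later difference of steps had 0 members called and no other count changed.

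Signs turned on library size alone for Brdt (36.5 against 22.5 dpp, -0.21), Rfx2 (D4 against 10.5 dpp, -0.059), Mybl1 (D30 against 36.5 dpp, 0.38) and, in the later difference of steps, Brdt (0.14) and Rfx2 (0.12), a setting that moved the median of all genes to -0.64 for 36.5 against 22.5 dpp and 0.60 for D30 against 36.5 dpp. Taf7l in D16 against 22.5 dpp turned to -0.088 with RLE factors, -0.087 with DESeq2 and -0.005 with the CPM filter, and ranged from -0.115 to 0.129 without 1 library. For 10.5 against 6.5 dpp Tcfl5 turned to 0.097 with 9 groups and with fresh libraries, Fhl5 to 0.279 and 0.28, Sox30 to -0.052 and -0.053 and, with the library labelled 6.5 dpp fresh replicate 1, to -1.617, Rfx2 with it to -2.521, and Taf7l to -0.031 with RLE factors and -0.03 with DESeq2. For D30 against D16 Mybl1 turned on library size alone (-0.027) and Brdt with 9 groups (0.053) and fresh libraries (0.052). For CSF the same library turned Mybl1 (-0.809), Tcfl5 (-1.098), Brdt (-1.63), Crem (-0.747), Fhl5 (-0.669) and Tbpl1 (-0.259), and the replicate block Mybl1 (-0.001), Tcfl5 (-0.013), Brdt (-0.032) and Fhl5 (-0.177). Other ranges without 1 library that crossed 0 were -0.954 to 5.534 for Fhl5 in D16 against D4, -0.065 to 0.09 for Rfx2 in D4 against 10.5 dpp, -0.513 to 0.054 for Mybl1 in D30 against 36.5 dpp and -4.794 to 1.695 for Fhl5 in the earlier difference of steps. In the later one they reached 0.067 for Tcfl5 (from -0.953), 0.116 for Brdt (from -0.637), 2.245 for Fhl5 (from -4.245), 0.287 for Rfx2 (from -0.771) and 0.149 for Tbpl1 (from -1.238). For D30 against D16 they were -0.216 to 0.255 for Mybl1, -0.454 to 0.565 for Tcfl5, -0.356 to 0.397 for Brdt, -0.408 to 1.335 for Crem and -0.169 to 1.217 for Tbpl1, for 10.5 against 6.5 dpp -0.081 to 0.175 for Taf7l, and for CSF -0.236 to 0.36 for Mybl1, -0.116 to 0.266 for Tcfl5, -0.355 to 0.406 for Brdt and -0.19 to 1.105 for Fhl5. Over the 11 comparisons, 2866 of the alternative fold changes kept direction and side of the threshold, 69 lost and 33 gained a call and 73 turned.

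Over all genes, the share of upward calls moved from 45.9% to 27.9% (36.5 against 22.5 dpp), from 48.0% to 65.8% (D30 against 36.5 dpp), from 54.6% to 43.8% (22.5 against 10.5 dpp) and from 54.3% to 68.0% (D16 against 22.5 dpp) on library size alone. For the other comparisons it moved from 59.1% to 69.2% (10.5 against 6.5 dpp), 60.7% to 50.1% (D4 against 10.5 dpp), 54.7% to 73.2% and 57.0% to 82.1% (differences of steps), and RLE factors gave 56.0% for 36.5 against 22.5 dpp, 43.9% for D16 against 22.5 dpp and 43.2% for the later difference. Genes called differed by over 1.5 times from those reported as follows. With the library labelled 6.5 dpp fresh replicate 1 they went from 220 to 2 (10.5 against 6.5 dpp), 4598 to 851 (D16 against D4), 345 to 83 (D30 against D16), 1559 to 447 (D4 against 10.5 dpp), 4967 to 1924 (D16 against 22.5 dpp), 1851 to 203 and 3867 to 2142 (differences of steps). With only the groups compared they were 0, 0, 6465, 1687, 4923 and 1510 for the same comparisons without D16 against D4. DESeq2 called 656 for 10.5 against 6.5 dpp, 709 for D30 against D16, 2878 for the earlier difference and 4 for CSF (0 with edgeR). For 10.5 against 6.5 dpp 9 groups gave 2 and fresh libraries 6, and library size alone gave 6595 for the later difference. Without 1 library they ran from 30 (10.5 dpp replicate 2) to 314 for 10.5 against 6.5 dpp, from 1847 (D16 replicate 1) for D16 against D4, from 7 (D16 replicate 2) to 845 (D16 replicate 1) for D30 against D16, from 822 (10.5 dpp replicate 3) for D4 against 10.5 dpp, from 1155 (D16 replicate 2) for D16 against 22.5 dpp, from 535 (D16 replicate 2) to 3083 (6.5 dpp CSF replicate 3) for the earlier and from 1325 (D16 replicate 1) for the later difference of steps, and up to 3 (D30 CSF) for CSF, so the shares of all genes given beside the members rest on these libraries too. The strict thresholds called 0 (CSF) to 4101 genes (D30 against 36.5 dpp). CSF against fresh could not be fitted with 9 groups, fresh libraries or compared groups alone. With 2 libraries at D16 and at 36.5 dpp, spread there is known poorly. In every leave-one-out fit that left an arm with 1 library, that library was taken to vary like the other groups.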
